A study of Homo sapiens with 16 samples.

Results

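The TGF-beta and BMP feedback genes described here are TGFB1, SMAD3, SMAD6, SMAD7, SKI, SKIL, ID1, ID2 and ID3. They were taken by symbol from the deposited expression matrix, and all 9 were found among its 25270 genes. Values are FPKM, fragments per kilobase of transcript scaled to the number of mapped fragments of the library, so levels of different genes can be set side by side per length. Every library came from U2OS, a human osteosarcoma cell line, treated for 6 h in dishes. There was 1 DMSO library and 1 library each for the compounds CPT, T4 and T5 at 0.5, 2, 5, 10 and 20 µM, which makes 16 libraries. The series describes T4 and T5, known only by these code names, as modulators of alternative polyadenylation, the choice among 3′ ends at which a transcript is cut and tailed. CPT appears in the labels only by that abbreviation. The labels name no genetic change in the cells, and because all libraries are of 1 cell line, nothing here speaks for other cells.

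TGF-beta and the bone morphogenetic proteins (BMPs) are secreted ligands that bring together pairs of serine/threonine kinase receptors at the cell surface. The receptors phosphorylate receptor-regulated SMAD proteins, which join SMAD4, enter the nucleus and act on target genes. Several targets feed back on the pathway: the inhibitory SMADs act at the receptors, the corepressors SKI and SKIL bind SMAD complexes, and the ID proteins, classic BMP targets, bind E proteins and keep them from DNA. In cells of the bone lineage these pathways are known for their part in growth, matrix production and differentiation. Several of these transcripts are known to be short-lived.

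Because each condition has 1 library, there is no replicate check of any single dose. The change of a gene with dose was fitted with limma over the DMSO library and the 5 doses of a compound, on the log2(FPKM + 1) scale and against log2(1 + dose/0.5 µM). The fitted change from 0 to 20 µM is called the dose trend, and its error is the scatter of the 6 libraries about the line. A curvature term adds the square of the log dose to the fit. Its value is read at the middle of the log dose scale. It gives how far the curve lay above (positive) or below (negative) the straight line joining its values at 0 and 20 µM. Compounds were compared over the 5 matched doses with dose as a block. Adjusted p-values are Benjamini-Hochberg values over the 10600 genes whose FPKM averaged 1 or more, and a value is called where the adjusted p is under 0.05. SMAD6 had a mean of 0.874 and was left out of the tests, so 8 of the 9 genes were tested. The 3 dose trends share the DMSO library and are not independent of each other.

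Relative depth, read from the spacing of low values, lay between 0.639 and 0.997 of the DMSO library in the treated libraries. The fitted dose trend had a median over all tested genes of -0.14 for CPT, -0.27 for T4 and -0.29 for T5. Among all tested genes, 1899 rose and 2739 fell with CPT, 1533 rose and 3438 fell with T4, and 1929 rose and 3658 fell with T5. After median centring these splits became 3572 and 1643, 4293 and 1847, and 4388 and 1992, and the median of all trends moved up by 0.45, 0.65 and 0.67. After quantile normalization it moved up by 0.21, 0.35 and 0.36, with splits of 2341 and 1910, 2806 and 2101, and 3013 and 2344. Of 9 bone markers, 5 reached an FPKM of 1 in DMSO, while IBSP and SP7 were listed at 0, BGLAP near 0 and COL1A2 at 0.051. The list summed to between 534.6 and 1011 FPKM over the libraries, lowest in DMSO. COL1A1 (300.6 FPKM in DMSO) and SPARC (226.9) made up most of that sum. COL1A1, SPARC and SPP1 were above DMSO in every treated library. RUNX2 and ALPL, at 2.86 and 2.54 FPKM in DMSO, were below it in every treated library. Epithelial markers summed to at most 4.79 FPKM, endothelial markers to at most 0.244 and blood markers to at most 0.125. In bulk RNA, fewer cells of a kind and less RNA per cell cannot be told apart.

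With CPT, 2 of the 8 tested feedback genes rose with dose (ID2, TGFB1) and 2 fell (SKI, SKIL), beside 17.9% of all tested genes rising and 25.8% falling. With T4, 1 rose (ID3) and 3 fell (SMAD3, SKI, SKIL), beside 14.5% and 32.4%. With T5, 2 rose (ID3, TGFB1) and 2 fell (SKI, SKIL), beside 18.2% and 34.5%. These shares of 8 genes are close to the background, so the account below is of single genes rather than of a shift of the set. On a linear dose scale 0 of the 8 were called with CPT or T5 (at an unadjusted p under 0.05 limma gave 3 rising and 0 falling with CPT, and 2 and 2 with T5), and SKI and ID3 kept their calls with T4. Among all tested genes that scale called 0 either way with CPT, 23 rising and 545 falling with T5, and 99 and 1328 with T4. The median trend of the 8 genes was 0.12 for CPT, -0.10 for T4 and -0.16 for T5. The corepressor genes SKI and SKIL carried negative trends with every compound, and the ID genes carried positive ones, called for ID2 with CPT and for ID3 with T4 and T5. SMAD7 and ID2 had their highest T4 and T5 levels at 2 or 5 µM and lower levels at 20 µM.

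**Figure D1:**
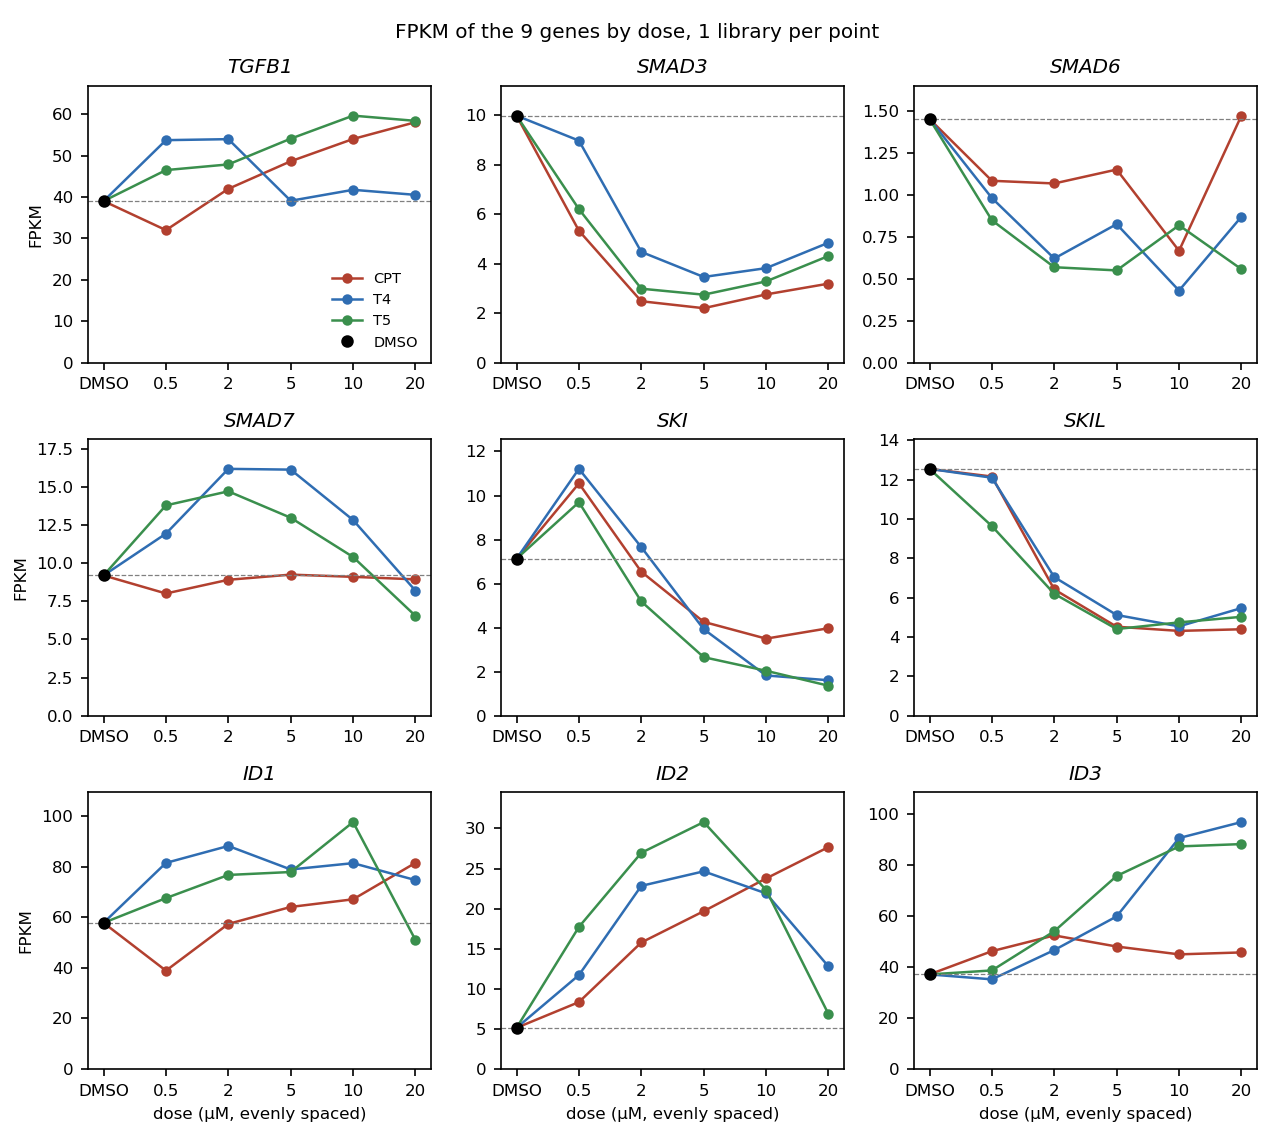
FPKM of each of the 9 genes (vertical axes, each from 0) in DMSO and at 0.5 to 20 µM of CPT, T4 or T5 (horizontal axes, doses evenly spaced); each point is 1 library and the dashed line is the DMSO level. SKI and SKIL lie below DMSO at 5 to 20 µM of all compounds, ID2 lies above DMSO in all 15 treated libraries, and SMAD7 peaks at 2 µM of T4 (16.2 FPKM) and of T5 (14.7 FPKM).

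TGFB1 encodes a ligand of the pathway that many tumour cells secrete. Its level in DMSO was 39.0 FPKM. With CPT it was 32.0, 42.0, 48.6, 54.0 and 58.1 FPKM from 0.5 to 20 µM. The lowest CPT dose lay under DMSO and the other doses lay over it, each higher than the dose before. T4 gave 53.7, 54.0, 39.1, 41.7 and 40.5 FPKM, and T5 gave 46.5, 47.9, 54.1, 59.6 and 58.4 FPKM. All 10 of these libraries were above DMSO, the T4 libraries from 5 µM up only slightly. The dose trend was 0.74 ± 0.17 (SE) for CPT (limma, adjusted p = 0.0176), 0.57 ± 0.10 for T5 (adjusted p = 0.00484) and -0.18 ± 0.23 for T4 (adjusted p = 0.542). The CPT call was lost without the 10 µM library (adjusted p = 0.0665) and without the 20 µM library (adjusted p = 0.0589), while the T5 call held with each library left out in turn. Without 10 µM of CPT, 1 of all tested genes was called rising and 0 falling. With DMSO left out, the T4 trend was -0.59 and was called (adjusted p = 0.0494).

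TGFB1 shares exon sequence with HNRNPUL1 on the opposite strand in the GENCODE 29 annotation, and the labels do not say whether counting used strand. HNRNPUL1 lay between 42.6 and 66.1 FPKM, as high as TGFB1, so TGFB1 values are uncertain to the extent that reads were shared. Its own trends were -0.13 ± 0.20 for CPT, 0.00387 ± 0.118 for T4 and -0.10 ± 0.09 for T5, none of them called. At matched doses HNRNPUL1 was higher with T4 than with CPT by 0.41 ± 0.06 (limma, adjusted p = 0.0014) and with T5 than with CPT by 0.33 ± 0.06 (adjusted p = 0.00254), beside -0.02 ± 0.19 and 0.20 ± 0.08 for TGFB1. Its part in the TGFB1 values was not tested. SMAD3 and ID2 also share exon sequence with genes on the opposite strand, AC087482.1 and ID2-AS1. Neither of these partners is in the matrix, so reads shared with them could not be looked at.

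SMAD3 is the receptor-regulated SMAD that carries TGF-beta and activin signals into the nucleus. In DMSO it stood at 9.98 FPKM. CPT gave 5.33, 2.48, 2.20, 2.76 and 3.19 FPKM from 0.5 to 20 µM. With T4 the values were 8.97, 4.48, 3.46, 3.82 and 4.85 FPKM. Every one of these libraries was below DMSO, with the lowest level at 5 µM and a higher one at 20 µM. T5 gave 6.20, 2.99, 2.75, 3.28 and 4.31 FPKM, again lowest at 5 µM. The median over the 5 doses was 0.276 of the DMSO level for CPT, 0.448 for T4 and 0.329 for T5.

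The curvature term of SMAD3 was negative for all compounds. Its value was -1.002 ± 0.142 for CPT (limma, adjusted p = 0.0353), -0.64 ± 0.20 for T4 (adjusted p = 0.0480) and -0.97 ± 0.12 for T5 (adjusted p = 0.00566). The curvature calls were lost without the 2 µM library for all compounds (adjusted p = 0.187 for CPT, 0.213 for T4 and 0.0615 for T5). For CPT they were also lost without 5, 10 or 20 µM (0.0895, 0.0855 and 0.0645), and for T4 likewise (0.154, 0.0801 and 0.289). With no filter on low values the CPT and T4 curvatures were not called either (adjusted p = 0.0804 and 0.118). In each of these CPT fits 0 of all tested genes were called either way, and the SMAD3 estimate lay between -1.19 and -0.91. The dose trend of SMAD3 was -1.36 ± 0.49 for CPT (adjusted p = 0.0622), -1.17 ± 0.37 for T4 (adjusted p = 0.0393) and -1.12 ± 0.47 for T5 (adjusted p = 0.0875). The T4 trend lost its call without DMSO, 0.5, 5 or 10 µM (adjusted p = 0.161, 0.124, 0.0554 and 0.112), and after median centring (-0.53, adjusted p = 0.183) or quantile normalization (-0.54, adjusted p = 0.208). In all, 9 of the 13 alternatives run lost the T4 call. Without the 20 µM library the CPT and T5 trends were -1.98 (adjusted p = 0.0366) and -1.78 (adjusted p = 0.0242), and without 2 µM the CPT trend was -1.44 (adjusted p = 0.0389).

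SMAD6 is the inhibitory SMAD that acts mainly on BMP receptors, and it was the least abundant of the 9 genes. It had 1.45 FPKM in DMSO. With CPT it had 1.09, 1.07, 1.15, 0.668 and 1.48 FPKM from 0.5 to 20 µM. T4 gave 0.983, 0.622, 0.827, 0.430 and 0.871 FPKM, and T5 gave 0.850, 0.570, 0.551, 0.820 and 0.558 FPKM. All 10 T4 and T5 libraries were below DMSO, and the 20 µM CPT library was slightly above it. At these levels differences of a few fragments move the value. With no filter on low values, the difference T4 minus CPT was -0.26 ± 0.06 (limma, adjusted p = 0.0225), lower with T4 at 5 of 5 doses, and no other SMAD6 comparison was called.

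SMAD7, the other inhibitory SMAD, brings ubiquitin ligases to active TGF-beta receptors and is itself a rapid TGF-beta target. DMSO had 9.20 FPKM. CPT gave 8.01, 8.91, 9.25, 9.10 and 8.94 FPKM, all close to DMSO. T4 gave 11.9, 16.2, 16.1, 12.8 and 8.20 FPKM, and T5 gave 13.8, 14.7, 13.0, 10.4 and 6.55 FPKM. Both compounds had higher levels than DMSO from 0.5 to 10 µM and lower ones at 20 µM. The curvature was 0.86 ± 0.12 for T4 (limma, adjusted p = 0.00443), 0.83 ± 0.09 for T5 (adjusted p = 0.00385) and -0.02 ± 0.12 for CPT (adjusted p = 0.928). The T4 curvature was called under each of the 12 alternatives run, and the T5 curvature under 11 of 12, the exception being the fit without 2 µM (adjusted p = 0.0517). No SMAD7 dose trend was called with all libraries: the estimates were 0.06 ± 0.16 for CPT, -0.02 ± 0.40 for T4 and -0.45 ± 0.39 for T5. Without DMSO the T5 trend was -1.14 (adjusted p = 0.0325), and after median centring or quantile normalization the T4 and T5 estimates were positive and not called.

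SKI, a corepressor that binds SMAD complexes and recruits histone deacetylases, had 7.13 FPKM in DMSO. CPT gave 10.5, 6.54, 4.27, 3.50 and 3.98 FPKM from 0.5 to 20 µM. T4 gave 11.2, 7.66, 3.94, 1.83 and 1.62 FPKM. T5 gave 9.70, 5.19, 2.66, 2.05 and 1.37 FPKM. At 0.5 µM each compound had a higher level than DMSO, and from 5 µM up each had a lower one. The dose trend was -2.14 ± 0.45 for T4 (limma, adjusted p = 0.00949), -2.13 ± 0.33 for T5 (adjusted p = 0.00316) and -1.16 ± 0.33 for CPT (adjusted p = 0.0312). The T4 call held under all 14 alternatives run and the T5 call under 13 of 14, a linear dose scale being the exception (adjusted p = 0.0618). The CPT call was lost without 0.5, 5, 10 or 20 µM (adjusted p = 0.0597, 0.0652, 0.0997 and 0.0573), after median centring (-0.71, adjusted p = 0.0869) and after quantile normalization (-0.69, adjusted p = 0.145). In all, 8 of the 14 alternatives run lost the CPT call. The fit without 10 µM of CPT called 1 of all tested genes rising and 0 falling.

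SKIL, also called SnoN, is the close relative of SKI whose transcript TGF-beta induces. In DMSO it stood at 12.5 FPKM. The CPT libraries had 12.2, 6.42, 4.53, 4.32 and 4.40 FPKM. With T4 the values were 12.1, 7.05, 5.13, 4.55 and 5.48 FPKM, and with T5 they were 9.64, 6.20, 4.41, 4.75 and 5.03 FPKM. All 15 treated libraries were below DMSO, those at 0.5 µM of CPT and T4 only slightly, and levels from 5 to 20 µM lay close together. The dose trend was -1.58 ± 0.27 for CPT (limma, adjusted p = 0.0113), -1.36 ± 0.28 for T4 (adjusted p = 0.00896) and -1.28 ± 0.28 for T5 (adjusted p = 0.00993). The T4 and T5 calls held with each library left out in turn, and the CPT call was lost without 10 µM (adjusted p = 0.0541). That omission left 1 of all tested genes called rising with CPT and 0 falling. At 0.5 µM the SKI values were above DMSO with all compounds while the SKIL values were below it. For T5 the SKIL curvature was -0.48 ± 0.12 (adjusted p = 0.0316), a call lost without 2, 5, 10 or 20 µM (adjusted p = 0.140, 0.0976, 0.0774 and 0.235). It was also lost after median centring, after quantile normalization and with no filter on low values (adjusted p = 0.0767, 0.0512 and 0.0574).

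ID1 is a helix-loop-helix protein without a DNA-binding part and a standard readout of BMP signalling. It was the most abundant of the 9 genes in DMSO, at 57.8 FPKM. With CPT it had 38.9, 57.3, 64.0, 67.1 and 81.5 FPKM. T4 gave 81.4, 88.1, 78.8, 81.3 and 74.6 FPKM, and T5 gave 67.5, 76.7, 77.8, 97.6 and 51.0 FPKM. All T4 libraries were above DMSO, while the lowest CPT dose and the highest T5 dose fell short of it. No dose trend was called with all libraries: 0.70 ± 0.25 for CPT (limma, adjusted p = 0.0636), 0.24 ± 0.21 for T4 and 0.13 ± 0.35 for T5. After median centring the CPT and T4 trends were 1.15 and 0.89 and were called (adjusted p = 0.0110 and 0.0129), while after quantile normalization the T4 and T5 trends were -0.02 and -0.18 and were not. The CPT trend was also called without DMSO (1.17, adjusted p = 0.0206) and the T5 trend without 20 µM (0.80, adjusted p = 0.00741). The T4 curvature of 0.37 ± 0.11 (adjusted p = 0.0441) was lost without DMSO, 2, 10 or 20 µM (adjusted p = 0.461, 0.222, 0.0643 and 0.0563). That call was also lost after quantile normalization, with no filter on low values and with limma without its mean-variance trend (adjusted p = 0.0815, 0.118 and 0.0739).

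ID2, the second of the ID genes here, had the largest rise over DMSO of the 9 genes in FPKM ratio. In DMSO it had 5.14 FPKM. With CPT it had 8.35, 15.8, 19.7, 23.8 and 27.7 FPKM, higher at each dose than at the one before. With T4 it had 11.7, 22.8, 24.6, 21.9 and 12.8 FPKM. With T5 it had 17.7, 27.0, 30.8, 22.3 and 6.87 FPKM. All 15 treated libraries were above DMSO, and the T4 and T5 levels were highest at 5 µM and much lower at 20 µM. The CPT dose trend was 2.22 ± 0.23 (limma, adjusted p = 0.0105), a call lost without 10 µM (adjusted p = 0.0537). The estimate was 2.22 without 10 µM too, and that fit called 1 of all tested genes rising and 0 falling. The T4 and T5 trends were 1.26 ± 0.65 (adjusted p = 0.152) and 0.51 ± 1.02 (adjusted p = 0.695). The T4 trend was called after median centring (1.91, adjusted p = 0.0413) and without the 20 µM library (2.32, adjusted p = 0.0204). The curvature was 1.46 ± 0.10 for T4 (adjusted p = 0.00214) and 2.23 ± 0.17 for T5 (adjusted p = 0.00253), both called under each of the 12 alternatives run. For CPT it was 0.42 ± 0.10 (adjusted p = 0.0473), lost without DMSO, 2, 5, 10 or 20 µM (adjusted p between 0.0712 and 0.223). In all, 8 of the 12 alternatives run lost this CPT call. Without 2, 5, 10 or 20 µM, or with no filter on low values, 0 of all tested genes had a called CPT curvature.

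ID3, which shares the helix-loop-helix design of ID1 and ID2, had 37.1 FPKM in DMSO. CPT gave 46.2, 52.4, 48.0, 44.9 and 45.7 FPKM. T4 gave 35.2, 46.6, 59.8, 90.5 and 96.8 FPKM, and T5 gave 38.6, 54.0, 75.6, 87.2 and 88.1 FPKM. With T4 and T5 each dose was higher than the one before, while the CPT libraries lay in a narrow band above DMSO. The dose trend was 1.57 ± 0.19 for T4 (limma, adjusted p = 0.00181), 1.43 ± 0.15 for T5 (adjusted p = 0.00124) and 0.18 ± 0.18 for CPT (adjusted p = 0.424). The T4 call held under all 14 alternatives run, and the T5 call under 13, the exception being a linear dose scale (adjusted p = 0.0768). The CPT trend was called after median centring (0.63, adjusted p = 0.0452) and was -0.01 after quantile normalization (adjusted p = 0.965). The 3 ID genes had different dose courses within the same libraries: at 20 µM of T5 ID3 had 2.38 times its DMSO level, ID2 1.34 times and ID1 0.883 times.

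**Figure D2:**
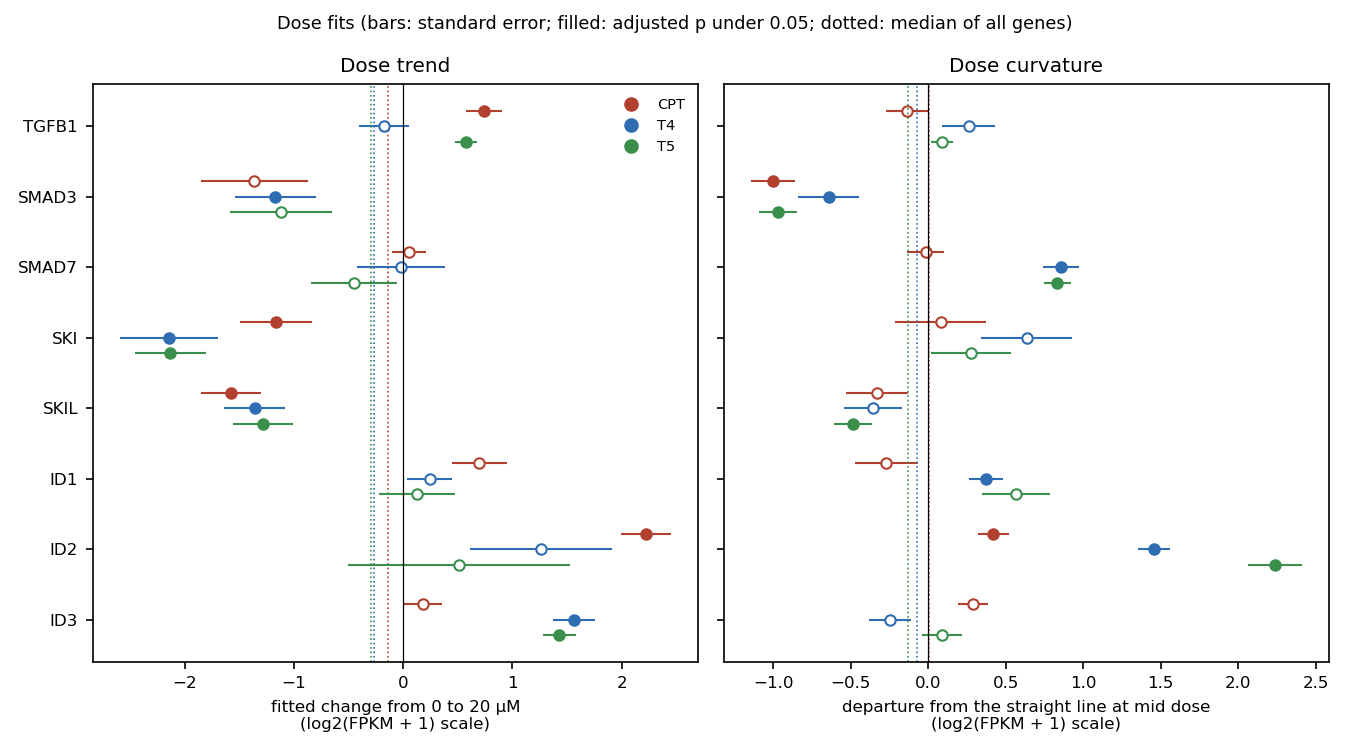
Fitted dose trend (left) and curvature (right) of the 8 tested genes on the log2(FPKM + 1) scale, with standard errors; filled points have an adjusted p under 0.05 and dotted lines are medians of all tested genes. SKI and SKIL lie left of 0 for all compounds, ID3 has called trends for T4 and T5, and the largest curvatures are those of ID2 with T4 (1.46) and T5 (2.23).

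For curvature, 1 of the 8 genes lay above its line with CPT (ID2) and 1 below (SMAD3), beside 7.97% and 9.92% of all tested genes. With T4, 3 lay above (SMAD7, ID1, ID2) and 1 below (SMAD3), beside 11.3% and 17.1%. With T5, 2 lay above (SMAD7, ID2) and 2 below (SMAD3, SKIL), beside 10.6% and 25.4%. The 3 curvature fits again share the DMSO library. Some curvatures that were not called with all libraries were called with 1 left out: SKIL without DMSO for CPT (-0.78, adjusted p = 0.0345) and T4 (-0.80, adjusted p = 0.0186), SKI with T4 without 20 µM (1.42, adjusted p = 0.0139), ID3 with T4 without 20 µM (-0.60, adjusted p = 0.0167) and with T5 without DMSO (0.38, adjusted p = 0.0282). ID1 was called with CPT without 0.5 µM (-0.21, adjusted p = 0.0496) and with T5 without 10 µM (0.52, adjusted p = 0.0223). Median centring also gave calls for ID3 with CPT (0.39, adjusted p = 0.0312) and ID1 with T5 (0.74, adjusted p = 0.0445).

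At matched doses, T4 against CPT gave 3 of the 8 genes higher with T4 (SMAD3, SMAD7, ID1) and 0 lower, beside 28.3% and 36.9% of all tested genes, and at an unadjusted p under 0.05 limma also gave 3 and 0. SMAD3 was higher by 0.53 ± 0.08 (limma, adjusted p = 0.00187), at 5 of 5 doses, with a median FPKM ratio of 1.57. SMAD7 was higher by 0.48 ± 0.14 (adjusted p = 0.0211), at 4 of 5 doses, the 20 µM dose being the exception. The SMAD7 call was lost without 0.5, 2, 5 or 10 µM (adjusted p = 0.0515, 0.0703, 0.0748 and 0.0566), whereas that of SMAD3 held with each dose left out. ID1 was higher by 0.42 ± 0.16 (adjusted p = 0.0498), at 4 of 5 doses, and lost its call without 0.5, 2, 5 or 10 µM (adjusted p = 0.0981, 0.137, 0.0873 and 0.0811). In all, 9 of the 12 alternatives run lost the ID1 call. Among them were a pseudocount of 0.1 (limma, adjusted p = 0.0532) and limma without its mean-variance trend (adjusted p = 0.0607).

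T5 against CPT gave 1 gene higher with T5 (SMAD3) and 1 lower (SKI), beside 25.0% and 37.6% of all tested genes. SMAD3 was higher by 0.23 ± 0.07 (limma, adjusted p = 0.0247), at 5 of 5 doses. That call was lost without 2, 5, 10 or 20 µM (adjusted p = 0.0619, 0.0844, 0.0795 and 0.0555). SKI was lower by a difference of -0.51 ± 0.14 (adjusted p = 0.0188), at 5 of 5 doses, with FPKM ratios from 0.919 at 0.5 µM to 0.344 at 20 µM. The SKI call was lost without 5 or 10 µM (adjusted p = 0.0556 and 0.0575) and after median centring (-0.32, adjusted p = 0.0620) or quantile normalization (-0.32, adjusted p = 0.0670). TGFB1 was also higher at 5 of 5 doses, by 0.20 ± 0.08 (adjusted p = 0.0558), which was called after median centring (0.39, adjusted p = 0.0016) and quantile normalization (0.26, adjusted p = 0.0300) and without 20 µM (0.25, adjusted p = 0.0351). SMAD7, with 0.32 ± 0.17 (adjusted p = 0.136), was called after median centring (0.51, adjusted p = 0.0224), after quantile normalization (0.48, adjusted p = 0.0380) and without 20 µM (0.50, adjusted p = 0.00999). ID3, with 0.46 ± 0.19 (adjusted p = 0.0731), was called after median centring (0.65, adjusted p = 0.0263) and without 0.5 µM (0.64, adjusted p = 0.0179). Without 20 µM, ID1 (0.50, adjusted p = 0.00496) and ID2 (0.57, adjusted p = 0.0344) were called as well.

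T5 against T4 gave 0 of the 8 genes higher with T5 and 1 lower (SMAD3), beside 6.05% and 26.5% of all tested genes. At an unadjusted p under 0.05 limma gave 0 higher and 3 lower. After median centring the split over all genes turned from 641 higher and 2807 lower to 2622 and 1166. SMAD3 was lower with T5 at 5 of 5 doses, by a difference of -0.30 ± 0.07 (adjusted p = 0.0155), with a median FPKM ratio of 0.793. The call was lost without 2 µM (adjusted p = 0.0568) and after quantile normalization (-0.20, adjusted p = 0.0540). For ID3 the difference was 0.10 with a 95% interval from -0.07 to 0.26, for SKIL -0.14 with an interval from -0.27 to -0.01, and for ID2 0.06 with an interval from -0.36 to 0.48. SMAD7 was called lower with T5 without 0.5 µM (-0.25, adjusted p = 0.0120) and SKI without 10 µM (-0.31, adjusted p = 0.0397). Without dose as a block, SMAD7 in T4 minus CPT was the one call left among the 8 genes in the 3 comparisons. SMAD3 then had adjusted p-values of 0.121, 0.477 and 0.971 in limma. Among all tested genes, 1783 were then called higher and 2328 lower in T4 minus CPT. In T5 minus CPT there were 1316 and 2415, and in T5 minus T4 0 either way. SMAD3 levels were ordered CPT, T5, T4 from low to high at each of the 5 doses.

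**Figure D3:**
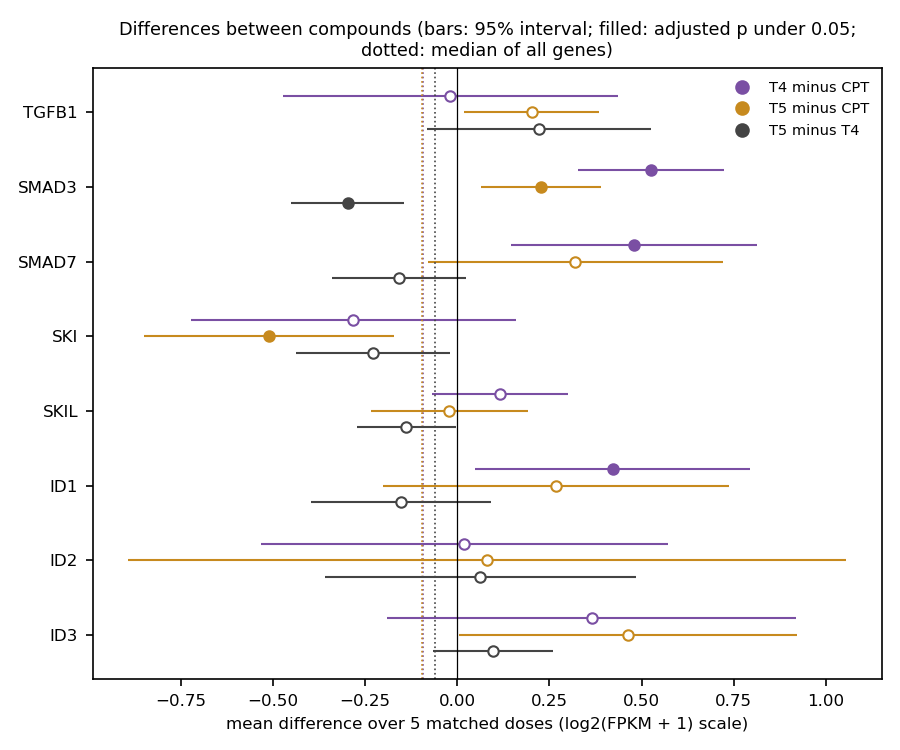
Mean difference between compounds over the 5 matched doses for the 8 tested genes, on the log2(FPKM + 1) scale, with 95% intervals; filled points have an adjusted p under 0.05 and dotted lines are medians of all tested genes. SMAD3 differs in all 3 comparisons (0.53, 0.23 and -0.30), while the intervals of ID2 are wide and include 0.

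Gene span, the distance from the first to the last base of a gene in GENCODE 29 (GRCh38), differs widely among the 9 genes and was not used to choose them. ID1 spans 1.23 kb on chromosome 20, ID3 1.88 kb on chromosome 1 and ID2 5.61 kb on chromosome 2. SMAD7 spans 32.2 kb on chromosome 18, SKIL 39.2 kb on chromosome 3 and TGFB1 52.3 kb on chromosome 19. SMAD6 with 80.6 kb and SMAD3 with 131.4 kb lie on chromosome 15, and SKI with 81.4 kb lies on chromosome 1. The ID genes are thus among the shortest of all tested genes, with 1.21% to 10.6% of them shorter.

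Over all tested genes with a span (94.7%), the median CPT trend was 0.55 for genes under 5 kb, 0.27 from 5 to 20 kb, -0.31 from 20 to 50 kb, -0.67 from 50 to 100 kb and -0.58 above. For T5 the medians were 0.36, -0.10, -0.45, -0.58 and -0.44, and for T4 they were 0.15, -0.18, -0.39, -0.46 and -0.32. SKIL, SKI and SMAD3 had estimates below the median of their span class with every compound, and ID2 had estimates above it. TGFB1 had a positive trend with CPT and T5 in a class whose median was negative. In the matched comparison of T4 with CPT, genes over 100 kb had a median difference of 0.53, which is the value of SMAD3. Of these long genes, 71.35% were called higher with T4. Genes under 5 kb had a median of -0.34 there, whereas ID1 had 0.42 and ID3 0.36 ± 0.23 (adjusted p = 0.203). In T5 minus CPT, genes over 100 kb had a median of 0.38 and 65.11% of them were called higher, beside 0.23 for SMAD3. In T5 minus T4, genes over 100 kb had a median of -0.13 and 40.86% of them were called lower, beside -0.30 for SMAD3. The part of span in the members' values was not tested.

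**Figure D4:**
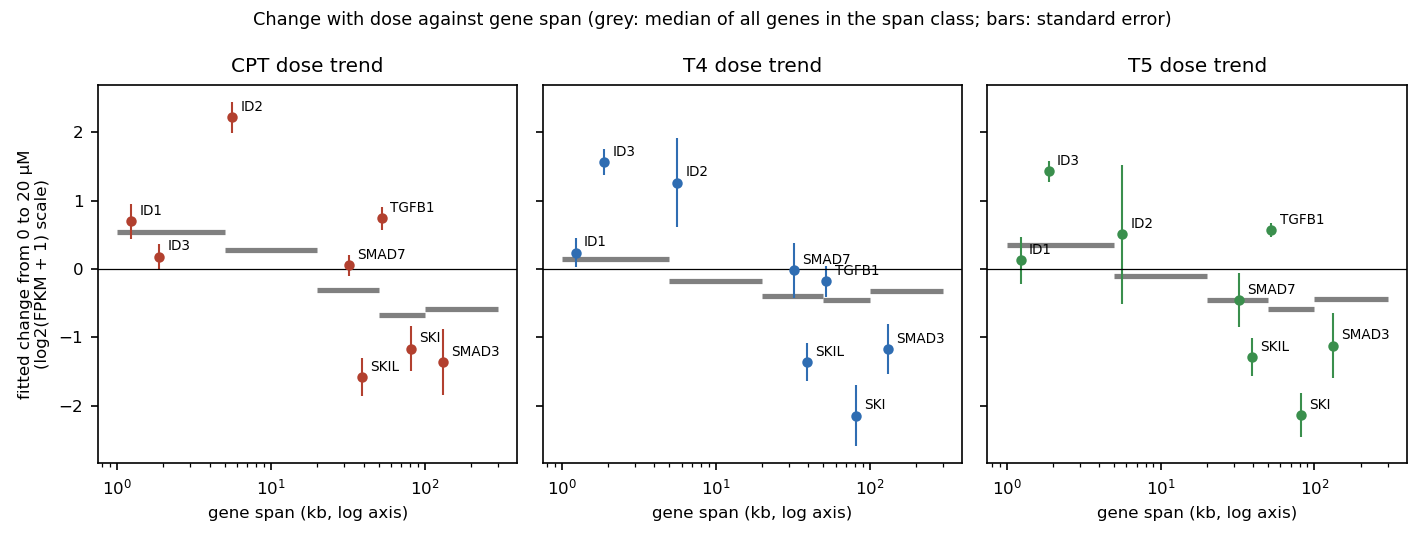
Fitted dose trend (vertical axis, log2(FPKM + 1) scale) against gene span in kb (horizontal log axis) for the 8 tested genes, with standard errors; grey lines are medians of all tested genes per span class, the outer classes being open-ended. SKI, SKIL and SMAD3 lie under the grey line of their class in all panels, and ID2 lies over it.

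Upstream sequences are shown for SKIL, SMAD6, ID3 and ID2, each of which has 1 window: SKIL and SMAD6 hold the rarest of the letters searched, and ID2 and ID3 are the ID genes with called trends. RefSeq (GRCh38.p14) gave windows of 250 bases before the transcription start for 8 of the 9 genes, and SKI had no entry. These were searched on both strands for the SMAD palindrome GTCTAGAC, the SMAD box CAGAC, the BMP element GGCGCC, the cAMP response element TGACGTCA and the AP-1 site TGAGTCA. Among 35116 windows of the same length, these letters were found in 0.182%, 38.0%, 16.4%, 1.65% and 4.20% in that order. The SKIL window (chr3:170357465-170357714, plus strand) holds TGACGTCA beginning 54 bases before the start, GGCGCC 190 before and CAGAC on the other strand 107 before. The SMAD6 window (chr15:66701986-66702235, plus strand) holds GTCTAGAC 12 bases before the start. The ID3 window (chr1:23559502-23559751, minus strand) holds CAGAC 147 before, and the ID2 window (chr2:8681806-8682055, plus strand) holds none of the motifs. Capitals mark these matches in the sequences, written 5′ to 3′ on the strand of the gene.
SKIL: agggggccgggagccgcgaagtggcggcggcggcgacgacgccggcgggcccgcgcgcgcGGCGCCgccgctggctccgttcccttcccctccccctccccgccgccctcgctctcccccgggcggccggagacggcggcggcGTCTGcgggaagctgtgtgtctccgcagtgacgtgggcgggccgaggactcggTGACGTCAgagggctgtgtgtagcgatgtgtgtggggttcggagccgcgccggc
SMAD6: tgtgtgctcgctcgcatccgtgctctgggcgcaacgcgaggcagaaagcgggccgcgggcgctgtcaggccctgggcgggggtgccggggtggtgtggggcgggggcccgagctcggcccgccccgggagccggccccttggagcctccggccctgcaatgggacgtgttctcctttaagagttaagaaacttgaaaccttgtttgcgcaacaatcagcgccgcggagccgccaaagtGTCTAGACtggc
ID3: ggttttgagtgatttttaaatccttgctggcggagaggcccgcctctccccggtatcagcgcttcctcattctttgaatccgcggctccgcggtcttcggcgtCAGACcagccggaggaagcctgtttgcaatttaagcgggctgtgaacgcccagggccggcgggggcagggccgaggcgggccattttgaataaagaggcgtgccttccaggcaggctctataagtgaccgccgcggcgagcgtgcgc
ID2: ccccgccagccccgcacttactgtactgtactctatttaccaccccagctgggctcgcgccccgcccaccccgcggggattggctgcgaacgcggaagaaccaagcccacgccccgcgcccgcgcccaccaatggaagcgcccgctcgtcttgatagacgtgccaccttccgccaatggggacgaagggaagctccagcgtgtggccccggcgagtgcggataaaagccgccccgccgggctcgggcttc
The windows of ID1 and TGFB1 also hold none of these letters. SMAD3 has 5 windows and SMAD7 has 3, one for each listed start, and they are not printed. One SMAD3 window holds GGCGCC at 136 and 106 bases before its start, another TGAGTCA at 56, a further one CAGAC at 133 and one more CAGAC at 172, 135 and 85, on either strand, and the other window holds none of the letters. Of the SMAD7 windows, one holds CAGAC at 217 and 128 bases before its start, another at 193, and the other none of the letters. A match describes the letters of this window, and the files hold no measure of binding.

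The protein-coding genes whose changes from DMSO over the 15 treated libraries lay nearest to each member were found by the root mean square difference on the log2(FPKM + 1) scale. SMAD3 was nearest to NCOA3 (0.135), TEX2 (0.146) and MALT1 (0.153). SKI was nearest to ZFYVE1 (0.101) and NFRKB (0.122). SKIL was nearest to ANGEL2, CTDSP2 and ZCCHC4, the first at 0.112. SMAD7 was nearest to EIF3B (0.179), UBE2C and PUF60, and ID1 to RALY (0.197), CDC42 and NPTN. ID3 was nearest to MLC1 (0.182), DUSP1 and RAB26, and TGFB1 to VPS51 (0.142), CLTA and USF2. ID2 had no protein-coding gene as near, the first being CLDN4 at 0.274, and IRF2BPL was also among its nearest. Among the members themselves the nearest pairs were ID1 with TGFB1 (0.288), ID1 with SMAD7 (0.311) and SMAD3 with SKIL (0.370). Many other tested genes lay nearer than these. TGFB1 had rank 83 from ID1 and ID1 rank 676 from TGFB1. ID1 had rank 81 from SMAD7 and SMAD7 rank 194 from ID1. SKIL had rank 436 from SMAD3 and SMAD3 rank 640 from SKIL. All of these differences are taken against the same DMSO library.

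Of the 72 other genes listed for the pathway, 59 were tested. With CPT 14 rose and 21 fell, with T4 12 rose and 22 fell, and with T5 15 rose and 25 fell, beside 17.9% and 25.8%, 14.5% and 32.4%, and 18.2% and 34.5% of all tested genes. Of 8 tested receptors and co-receptors, 0 rose with any compound, also at an unadjusted p under 0.05 by limma, and 6, 5 and 7 fell with CPT, T4 and T5, beside 25.8%, 32.4% and 34.5% of all tested genes falling. The BMP receptor gene BMPR1A fell from 9.86 FPKM in DMSO to 0.621 at 20 µM of CPT, and the TGF-beta receptor gene TGFBR2 from 20.3 FPKM to 3.44 at 20 µM of T5. Of 5 tested receptor-regulated or common SMADs and anchors, 0 rose, also at an unadjusted p, and 3 (SMAD1, SMAD4, SMAD5), 4 and 4 (these and ZFYVE9) fell. The ZFYVE9 call was kept under 6 of 13 alternatives with T4 and under 4 of 13 with T5, and was lost under the others. SMAD1, SMAD4 and SMAD5 had trends from -2.22 to -1.33 over the compounds. SMAD1 and SMAD4, like SMAD3, were below DMSO in all 15 treated libraries, whereas SMAD5, at 10.6 FPKM in DMSO, stood at 11.3, 12.7 and 11.8 FPKM at 0.5 µM of CPT, T4 and T5 and below DMSO at the higher doses.

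Of 13 tested ubiquitin ligases, deubiquitinases, phosphatases and corepressors of the SMADs, 0 rose, also at an unadjusted p, and 8, 9 and 10 fell with CPT, T4 and T5, beside the same 25.8%, 32.4% and 34.5% of all tested genes. SMURF2, a ligase that works with SMAD7, stood at 33.7 FPKM in DMSO and at 3.93 FPKM at 20 µM of CPT, with a trend of -2.58 ± 0.77 (limma, adjusted p = 0.0365). That call was kept under 6 of the 14 alternatives run and lost under 8. RNF111, a ligase that removes SKIL and SMAD7, had a trend of -2.64 ± 0.39 for T4 (adjusted p = 0.00311) and -2.59 ± 0.45 for T5 (adjusted p = 0.0048). The CPT trend of SNW1, a nuclear SMAD cofactor, was -2.58 ± 0.23 (adjusted p = 0.0105), and the T4 trend of the corepressor TGIF1 was -2.40 ± 0.51 (adjusted p = 0.00975). TGIF2 was lower with T4 than with CPT by a difference of -1.69 ± 0.14 (adjusted p = 0.000415) and with T5 than with CPT by -1.94 ± 0.13 (adjusted p = 0.000149). USP15, which removes ubiquitin from SMADs and receptors, was higher with T4 than with CPT by 1.40 ± 0.16 (adjusted p = 0.000703).

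Among 13 tested genes listed as ligands and latency proteins, 5 rose with each compound. Of all tested genes, 17.9%, 14.5% and 18.2% rose with CPT, T4 and T5. The 5 were BMP1, LTBP1, LTBP2, LTBP3 and LTBP4, named after their values were seen, with trends from 0.45 to 1.41. BMP1 is a protease rather than a ligand. The LTBP proteins hold latent TGF-beta in the matrix. With CPT 0 fell by the adjusted p and 2 by the unadjusted p in limma. BMP4 and TGFB2 fell with T4 and T5. Of all tested genes, 25.8%, 32.4% and 34.5% fell with CPT, T4 and T5. BMP4 went from 9.44 FPKM in DMSO to 0.313 at 20 µM of T4 and 0.450 at 20 µM of T5, beside 7.27 at 20 µM of CPT. TGFB2 was higher with T4 than with CPT by 1.93 ± 0.20 (limma, adjusted p = 0.000556) and with T5 than with CPT by 1.60 ± 0.15 (adjusted p = 0.000348). BMP2 was lower with T4 than with CPT by a difference of -1.46 ± 0.20 (adjusted p = 0.00117). TGFB1 and TGFB2, ligands of the same receptors, stood on opposite sides of their DMSO levels at 20 µM of all compounds: TGFB1 was at 58.1, 40.5 and 58.4 FPKM against 39.0 in DMSO, and TGFB2 was at 6.73, 19.4 and 18.5 FPKM against 54.5.

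Of 7 tested inhibitors that act outside the cell or at the receptors, 4 rose with CPT (BAMBI, CHRD, FKBP1A, FSTL3). With T4 2 rose (CHRD, FKBP1A) and with T5 4 rose (CHRD, FKBP1A, FST, FSTL3). Of all tested genes, 17.9%, 14.5% and 18.2% rose and 25.8%, 32.4% and 34.5% fell with CPT, T4 and T5. By the trend NOG and PMEPA1 fell with CPT, and 0 were called falling with T4 or T5, where limma at an unadjusted p gave 1 and 0. The NOG call was kept under 7 of 14 alternatives and that of PMEPA1 under 12 of 14. BAMBI, a decoy receptor, had 1.23 FPKM in DMSO and 11.9 at 20 µM of CPT. With T4 it had 3.42, 8.46, 6.39, 2.64 and 0.750 FPKM from 0.5 to 20 µM, and with T5 6.07, 9.24, 8.54, 5.36 and 0.965 FPKM. BAMBI was thus above DMSO at 0.5 to 10 µM and below it at 20 µM of both, with curvatures of 2.16 ± 0.18 (limma, adjusted p = 0.00214) and 2.41 ± 0.17 (adjusted p = 0.0022). FST, which traps activins, was higher with T5 than with T4 by 0.51 ± 0.09 (limma, adjusted p = 0.00928). PMEPA1, a membrane protein that holds SMADs from the receptor, had 47.3 FPKM in DMSO and 11.7 to 19.9 FPKM with CPT. T4 gave 14.5, 4.57, 3.16, 4.72 and 7.91 FPKM and T5 gave 7.08, 2.99, 3.10, 4.33 and 7.81 FPKM, all below DMSO and below CPT at the same dose. Its curvature was -2.10 ± 0.13 for T4 (adjusted p = 0.00214) and -2.45 ± 0.29 for T5 (adjusted p = 0.00501), beside trends of -2.49 ± 0.93 (adjusted p = 0.0661) and -2.06 ± 1.14 (adjusted p = 0.172). PMEPA1 was lower with T5 than with CPT by a difference of -1.46 ± 0.23 (adjusted p = 0.00187).

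Among 13 tested target genes, 5, 5 and 6 rose with CPT, T4 and T5, and TGFBI and THBS1 fell with each, beside 17.9%, 14.5% and 18.2% of all tested genes rising and 25.8%, 32.4% and 34.5% falling. The THBS1 trend was -0.53 with T4 and -0.44 with T5, and it turned to 0.11 and 0.24, not called, after median centring. With CPT the genes that rose were HEY1, ID4, MMP13, SNAI1 and SNAI2, and with T4 they were BHLHE40, CTGF, CYR61, KLF10 and MMP13. The CPT calls of HEY1 (rising) and THBS1 (falling) were each kept under 7 of 14 alternatives and lost under 7. The T4 call of CTGF was kept under 8 of 14 and lost under 6. SNAI1, a transcription factor of epithelial-mesenchymal transition, had 3.63 FPKM in DMSO and 29.7 at 20 µM of CPT (trend 2.75 ± 0.30, limma adjusted p = 0.0105), beside 8.97 and 11.2 at 20 µM of T4 and T5. The related SNAI2 had a CPT trend of 1.82 ± 0.26 (adjusted p = 0.0105). BHLHE40 had 17.8 FPKM in DMSO and 79.9 and 73.4 at 20 µM of T4 and T5. CTGF, a matrix-associated growth regulator, was higher with T5 than with CPT by 1.36 ± 0.13 (adjusted p = 0.000341), and KLF10 had a T4 trend of 1.09 ± 0.12 (adjusted p = 0.0016). HEY1, a target that Notch also drives, was higher with T5 than with T4 by 0.65 ± 0.07 (adjusted p = 0.00422).

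The E proteins TCF3, TCF4 and TCF12 are the partners that ID proteins bind. With T5 TCF4 fell by 1.03 and TCF12 by 0.47 on the log2(FPKM + 1) scale. The TCF4 call was kept under 5 of 13 alternatives and lost under 8. That of TCF12 was kept under 4 of 14, lost under 9 and turned sign under 1. By the adjusted p 0 of the 3 had a called trend with CPT or T4, where limma at an unadjusted p gave 0 and 2 falling. Of all tested genes, 25.8%, 32.4% and 34.5% fell with CPT, T4 and T5. TCF4 had 5.53 FPKM in DMSO and between 0.301 and 0.699 FPKM in the 5 CPT libraries, and TCF12 had 31.9 FPKM in DMSO and between 5.91 and 12.7 FPKM with CPT. Both were already low at 0.5 µM of CPT (0.607 and 5.91 FPKM). The CPT trends, -1.36 ± 0.72 for TCF4 (limma, adjusted p = 0.168) and -0.43 ± 0.77 for TCF12 (adjusted p = 0.671), were not called, although all 5 CPT libraries were below DMSO for both genes. The TCF12 trend for T5 was 0.20 and not called after median centring. TCF4 and TCF12 were higher with T4 than with CPT by 1.42 and 1.32, and with T5 than with CPT by 1.18 and 1.28.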

How the data were processed

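RNA of U2OS cells was sequenced in 16 libraries. The deposited values are FPKM per gene; the submitters' processing notes name GSNAP, Cufflinks, hg19 and GRCh37, with no versions or order. FPKM divides by transcript length, so a change in the transcript ends used could move a value without a change in molecules; whether reads were counted by strand is not given in the sources used here. Repeat lines (220, identical), 2 inner header lines and 1 incomplete line were dropped. Whole fragments could not be recovered from the values, so no count test was run and the depth in fragments is unknown.

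Genes whose FPKM averaged 1 or more across the 16 libraries (10600 of 25270) were tested on log2(FPKM + 1) with limma 3.58.1 (empirical Bayes with a mean-variance trend) in R 4.3.3; tables and figures used Python 3.11.15, pandas 2.3.3 and matplotlib 3.10.9. Each test used 6 libraries (trend, curvature) or 10 (matched doses). The fits were tested on simulated data. Where nothing says that libraries came from separate cultures, p-values measure only the scatter between these libraries. The members and the gene lists were chosen with earlier results of these data known.

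All 9 genes were named; of the other pathway genes, up to 3 called genes each way with the largest change per dose trend and up to 2 each way per matched comparison, the 3 E proteins, and for each tested member the 3 genes nearest in their change from DMSO. Some of these nearest genes are not reported here. Others were named where a count was 5 or fewer. Alternatives were a pseudocount of 0.1, no filter, a minimum mean FPKM of 5, median centring, quantile normalization, limma without its trend, dose rank, linear dose, no dose block and leaving out each library or dose. GENCODE 29 and RefSeq are of GRCh38, another build than that of the authors, and were used for spans, names and upstream sequences only.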

Additional observations from a re-analysis of the deposited data

How the results depend on the processing

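The 8 tested genes gave 72 values, recomputed under 903 alternatives in all: 734 kept their sign and their side of the threshold, 90 lost a call, 33 gained one and 46 turned sign, all of the last being values that were not called. SKI and ID3 with T4, and the curvatures of SMAD7 with T4 and of ID2 with T4 and T5, kept their calls under every alternative run. Of 220 called values of other pathway genes, 2301 of 2779 alternatives kept the call, 472 lost it and 6 turned sign. The limits are that each dose has 1 library, that the DMSO library enters all trends, that the depth in fragments is unknown, and that scaling moves the split of rising and falling genes. Counts that moved by more than 1.5 times follow, as genes up (higher, or above the line) and down, and the cause was not tested where none is named. Median centring gave the CPT trend 3572 up and 1643 down, the T4 trend 4293 up and 1847 down, the T5 trend 4388 up and 1992 down, CPT curvature 1900 up, T5 curvature 1991 up and 1314 down, T5 minus CPT 3986 up and 2521 down, T5 minus T4 2622 up and 1166 down among all genes, and the CPT trend 4 up and 1 down, the T4 trend 3 up, CPT curvature 2 up, T5 curvature 1 down, T5 minus CPT 4 up and 0 down among the 8 genes. A linear dose scale gave the CPT trend 0 up and 0 down, the T4 trend 99 up and 1328 down, the T5 trend 23 up and 545 down among all genes, and the CPT trend 0 up and 0 down, the T4 trend 1 down, the T5 trend 0 up and 0 down among the 8 genes. A minimum mean FPKM of 5, which leaves SMAD3 untested, gave the CPT trend 1335 down, the T4 trend 1612 down, the T5 trend 1811 down, CPT curvature 406 down, T4 curvature 606 down, T5 curvature 1062 down, T4 minus CPT 1763 up and 2297 down, T5 minus CPT 1630 up and 2215 down, T5 minus T4 417 up and 1361 down among all genes, and CPT curvature 0 up and 0 down, T4 curvature 0 down, T5 curvature 1 down, T4 minus CPT 1 up, T5 minus CPT 0 up, T5 minus T4 0 down among the 8 genes. No filter on low values gave CPT curvature 0 up and 0 down, T4 curvature 677 up, T5 minus T4 397 up among all genes, and the CPT trend 1 down, CPT curvature 0 up and 0 down, T4 curvature 0 down, T5 curvature 1 down, T4 minus CPT 1 down (SMAD6) among the 9 genes. Quantile normalization gave the T4 trend 2806 up and 2101 down, the T5 trend 3013 up and 2344 down, CPT curvature 517 up and 457 down, T5 curvature 1523 down, T5 minus T4 1067 up and 1351 down among all genes, and the CPT trend 1 down, T5 curvature 1 down, T5 minus CPT 3 up and 0 down, T5 minus T4 0 down among the 8 genes. limma without its mean-variance trend gave CPT curvature 362 up among all genes, and CPT curvature 0 up among the 8 genes. Dropping the dose block gave T4 minus CPT 1783 up and 2328 down, T5 minus CPT 1316 up and 2415 down, T5 minus T4 0 up and 0 down among all genes, and T4 minus CPT 1 up, T5 minus CPT 0 up and 0 down, T5 minus T4 0 down among the 8 genes. With each library or dose left out in turn, the counts among all genes ranged as follows: the CPT trend 1 to 2005 up and 0 to 2920 down, the T4 trend 785 to 1806 up, the T5 trend 1152 to 2622 up, CPT curvature 0 to 1463 up and 0 to 1973 down, T4 curvature 375 to 1572 up and 257 to 2215 down, T5 curvature 224 to 1480 up and 123 to 3752 down, T5 minus T4 294 to 756 up and 1647 to 2674 down. Over the same omissions the counts among the 8 genes ranged as follows: the CPT trend 0 to 3 up and 0 to 3 down, the T4 trend 1 to 2 up, CPT curvature 0 to 1 up and 0 to 2 down, T4 curvature 0 to 2 down, T5 curvature 1 to 3 up and 0 to 2 down, T4 minus CPT 1 to 3 up, T5 minus CPT 0 to 4 up and 0 to 1 down, T5 minus T4 0 to 2 down. Signs turned under quantile normalization for ID3 CPT trend (-0.012), SMAD7 T4 trend (0.52), ID1 T4 trend (-0.021), SMAD7 T5 trend (0.11), ID1 T5 trend (-0.18), SMAD7 CPT curvature (0.07997), TGFB1 T4 minus CPT (0.08004), SKIL T5 minus CPT (0.16). Signs turned under median centring for SMAD7 T4 trend (0.63), TGFB1 T4 trend (0.47), SMAD7 T5 trend (0.22), SMAD7 CPT curvature (0.082), TGFB1 T4 minus CPT (0.067), SKIL T5 minus CPT (0.17). Signs turned under linear dose for ID1 T5 trend (-0.21), ID2 T5 trend (-0.64). Among uncalled values whose sign turned with 1 library or dose left out, the ranges were SMAD7 CPT trend -0.021 to 0.17, ID3 CPT trend -0.11 to 0.29, SMAD7 T4 trend -0.57 to 0.64, ID1 T4 trend -0.17 to 0.44, SMAD7 T5 trend -1.14 to 0.12, ID1 T5 trend -0.18 to 0.80, ID2 T5 trend -1.22 to 2.22, SMAD7 CPT curvature -0.10 to 0.16, SKI CPT curvature -0.64 to 0.64, ID1 CPT curvature -0.38 to 0.22, TGFB1 CPT curvature -0.31 to 0.19, SKI T4 curvature -0.053 to 1.42, TGFB1 T4 curvature -0.12 to 0.55, SKI T5 curvature -0.37 to 0.63, ID1 T5 curvature -0.027 to 0.78, ID3 T5 curvature -0.18 to 0.38, ID2 T4 minus CPT -0.10 to 0.29, TGFB1 T4 minus CPT -0.21 to 0.10, SKIL T5 minus CPT -0.067 to 0.049, ID2 T5 minus CPT -0.15 to 0.57, ID2 T5 minus T4 -0.061 to 0.28. On the linear dose scale, limma at an unadjusted p under 0.05 gave 411 rising and 1150 falling genes with CPT, of which 3 and 0 were among the 8; without the dose block it gave 65 higher and 93 lower in T5 minus T4. For CPT curvature without the filter it gave 2656 above and 3027 below. The omission that took the CPT trend to 1 and 0 calls was that of 10 µM, where an unadjusted p under 0.05 was reached by 1782 rising and 2666 falling genes. Among other pathway genes the sign turned under median centring for THBS1 with T4 (0.11) and T5 (0.24), TCF12 with T5 (0.20), and LTBP3 (0.028) and LTBP4 (0.013) in T5 minus CPT, and under quantile normalization for ENG with T5 (0.000956). The matched comparisons paired the libraries of the compounds by dose, which entered as a block. The labels give no other pairing, and each group has 1 library.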
